A study of Mus musculus with 34 samples.

Results

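Doxorubicin kills dividing cells largely by trapping type II topoisomerases on cut DNA, and a cell can blunt it by carrying less of the target or by pumping the drug out. The 10 mouse genes described here were chosen by function, as doxorubicin targets, efflux transporters and DNA damage sensors, and were found by symbol: the topoisomerases Top2a, Top2b and Top1, the transporters Abcb1a, Abcb1b, Abcc1 and Abcg2, and the damage sensors Parp1, Atm and Prkdc. All 10 were among the 16576 genes listed for cultured MOSJ-Dkk-1 osteosarcoma cells, and 8 of 10 were among the 12595 genes listed for tumours grown from them. Top2a and Parp1 were not analysed here in the tumours.

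Topoisomerase IIα, the Top2a product, is made in dividing cells, where it untangles newly copied chromosomes, and its level is a main determinant of how doxorubicin acts. Topoisomerase IIβ, from Top2b, is present in dividing and resting cells alike, serves transcription, and has been tied to the heart damage that limits the drug. Top1 encodes the topoisomerase that cuts a single strand, the target of camptothecins rather than of doxorubicin. Mice carry a pair of genes, Abcb1a and Abcb1b, for the drug pump P-glycoprotein that humans encode in a single gene. Abcc1 encodes the pump MRP1, which like P-glycoprotein exports anthracyclines, and Abcg2 the breast cancer resistance protein, another drug exporter. Atm and Prkdc encode kinases that respond to double-strand breaks, the latter the catalytic subunit of DNA-PK, and Parp1 encodes the enzyme that marks broken DNA with poly(ADP-ribose).

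RNA was sequenced from 18 cultures and 16 tumours of MOSJ-Dkk-1, a mouse osteosarcoma line that carries a lentiviral human Dkk-1 gene behind the cytomegalovirus promoter and so secretes this inhibitor of canonical Wnt signalling in every group, controls included. In culture, cells received no morpholino (NT, labelled as vehicle), 5 µM of a morpholino against Dkk-1 (DkkMo) or 5 µM of its mismatched control (scrMo), and were taken in the logarithmic phase of growth at 6 days (log phase) or after 48 h of confluence in unchanged medium, at 1 week (nutritional stress), with 3 cultures in each of the 6 groups. The titles of the stressed NT cultures carry the numbers 1, 2 and 2, so 2 of these 3 share a label, and the median chi-square per gene was 1.3 for the pair sharing it and 0.82 and 1.49 for the other pairs. Tumours were raised between the tibia and fibula of NU/J nude mice that were 2 months old and lack the Foxn1-dependent thymus, and hence mature T cells, but keep other host blood, vessel and stromal cells. The mice received vehicle (NT), doxorubicin (DRB, 5 mg/kg), DkkMo or both (combination) by intraperitoneal injection every 2 days, with 4 tumours in each of the 4 groups and no scrMo tumours. No cells lacking the transgene and no doxorubicin-treated cultures entered the comparisons. A morpholino acts on an mRNA without cutting it and the transgene is human, so neither table checks the knockdown: mouse Dkk1 was not analysed here.

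Values are given as normalised read counts, that is reads divided by a size factor of the library, which were recovered from the deposited log2 values. Differences are given on the deposited log2 scale with their standard error (SE). This scale is a variance-stabilising one that shrinks differences of weakly expressed genes, so ratios of mean normalised counts are given beside it where the distance matters. A gene is said to rise or fall where limma gave an adjusted p under 0.05 over all genes tested, and to be differentially expressed (DE) where the change was also over 1.5-fold. The labels do not say whether the cultures of a group were started separately, so p-values measure only the spread between these samples, which may be technical.

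The cultures held 25.9 to 44.8 M (mega) reads on the genes tested and the tumours 26.9 to 125.1 M. Culture libraries of one group were alike, whereas the tumours differed widely. Over the 6854 genes in both tables the rank correlation of a tumour with the mean culture ran from -0.179 to 0.458, and the 10 most abundant genes took 8.5 to 73.5% of a tumour's reads against 4.8 to 7.7% of a culture's. The tumours had been fixed with formaldehyde before RNA was extracted. In the tumours the osteoblast-lineage gene Sparc lay at 26.5 to 372 normalised counts and Col1a1 at 5317 to 32741. In the cultures Sparc lay at 4037 to 17211. Of 12 osteosarcoma lineage markers 10 were measured in the tumours and 8 in the cultures. Their sums ran from 19786 to 3476199 normalised counts in the tumours and from 70438 to 283916 in the cultures. Cultures and tumours were normalised separately, so counts of one do not measure a difference from the other.

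Promoter sequences are shown for 2 of the genes, Top2a and Abcb1b, because their mRNA levels carried the culture results below and because their annotated starts coincided in RefSeq and in the gene annotation. Each is the 250 bases before the transcription start in GRCm38, read 5′ to 3′ on the gene's own strand, with every CCAAT or its reverse complement ATTGG in capitals. The first is chr11:99024190-99024439 on the minus strand, just before Top2a (chr11:98992943-99024189, 36 exon blocks), and the second chr5:8797897-8798146 on the plus strand, just before Abcb1b (chr5:8798147-8866315, 29 exon blocks).
Top2a: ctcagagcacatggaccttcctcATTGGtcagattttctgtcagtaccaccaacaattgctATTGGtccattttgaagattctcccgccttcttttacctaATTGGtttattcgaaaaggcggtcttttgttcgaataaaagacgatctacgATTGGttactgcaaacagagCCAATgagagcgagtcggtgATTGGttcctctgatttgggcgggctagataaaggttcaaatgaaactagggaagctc
Abcb1b: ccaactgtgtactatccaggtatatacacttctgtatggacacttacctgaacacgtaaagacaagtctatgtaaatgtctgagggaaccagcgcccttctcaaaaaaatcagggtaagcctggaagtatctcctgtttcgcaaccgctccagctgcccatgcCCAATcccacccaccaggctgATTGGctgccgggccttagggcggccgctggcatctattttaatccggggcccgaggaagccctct

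The CCAAT pentamer is the letter core bound by NF-Y, a factor known from promoters of cell cycle genes. On either strand Top2a held 6 of them, and 6 or more were found in 19 of the 32851 mouse promoters searched over the same length (0.06%). Abcb1b held 2, as did Top2b, a number reached or passed by 10.09% of promoters, and 33.8% held at least 1. The cell cycle list used below gave a median of 2 matches and at most 3 in the 15 of its 18 genes with a promoter entry, of which 14 held one. Top2a also held 2 copies of TTTGAA (or TTCAAA), the letters of the cell cycle homology region, found in 16.0% of promoters. Abcb1a likewise held 2 before its RefSeq start, and Abcg2 held 1 before some of its starts. The letters of the AP-1 site, E-box, TATA box and TCF/LEF site were also searched, without a match in either printed sequence. GGGCGG or its complement, the GC box, occurred once in each of the printed sequences and in 32.7% of promoters. These matches describe letters only. Promoter entries matched 8 of the 10 genes, with none for Abcc1 and Prkdc, and the RefSeq start of Abcb1a lay 93.0 kb before the start in the gene annotation, so its sequence is not shown.

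In log-phase cultures Top2a and the P-glycoprotein pair moved in opposite directions, and under nutritional stress the pair turned. Comparing DkkMo with scrMo in log phase, which asks what blocking Dkk-1 does beyond the backbone, 4 of the 10 genes passed the test, against 23.5% of all 16562 genes tested: Top2a and Abcg2 rose while Abcb1a and Abcb1b fell. Only Top2a was DE there, 1 of 10 against 1.97% of all genes. Under nutritional stress 4 of 10 passed, against 20.9% of all genes, with Abcb1a and Abcb1b now higher and Parp1 and Prkdc lower in DkkMo, and 0 of 10 were DE, against 1% of all genes. By unadjusted p under 0.05 limma gave 6 of 10 in that comparison, against 32.6% of all genes, and voom, a test on the recovered reads, called 1 of 10 DE, Abcb1a, and 918 of all 16562 genes.

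Testing that dependence on the culture condition itself, the difference between the stress and log-phase effects of DkkMo against scrMo, 5 of 10 genes passed (22.2% of all genes) and 3 of 10 were DE (3.7%). Abcb1a gave a log2 interaction of 0.97 ± 0.10 (SE, adjusted p = 1.7e-06), Abcb1b 0.75 ± 0.10 (adjusted p = 3.4e-05) and Top2a -0.95 ± 0.18 (adjusted p = 0.000975). When DkkMo was set against NT instead, Abcb1a still passed at 0.39 (adjusted p = 0.00557), Abcb1b did not at 0.07 (adjusted p = 0.611), and Top2a turned to 0.29 (adjusted p = 0.251). Parp1 and Prkdc gave -0.22 and -0.24 (adjusted p = 0.0315 and 0.0324), and these held in only 6 and 5 of the 12 fits that left out a single culture.

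**Figure D1:**
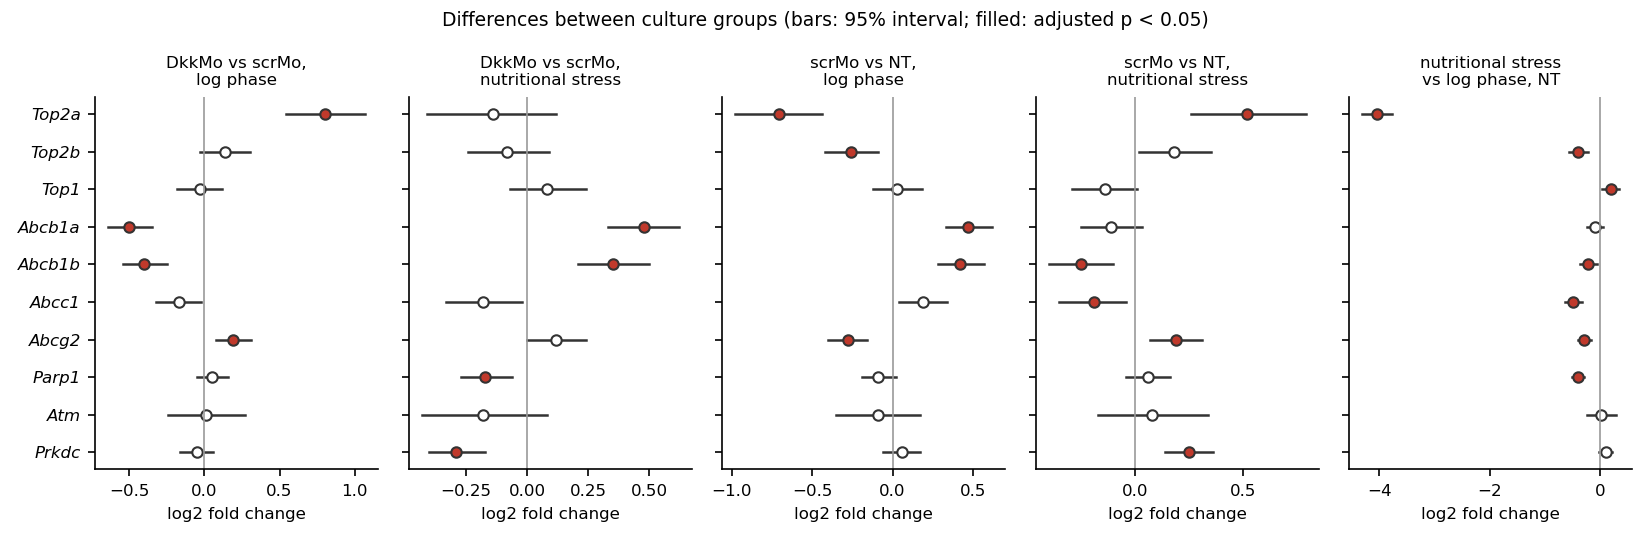
Log2 fold changes of the 10 genes in the 5 culture comparisons, 1 panel each with its own horizontal scale, with bars for the 95% interval and filled points for an adjusted p under 0.05. Abcb1a and Abcb1b lie below 0 for DkkMo against scrMo in log phase and above 0 under nutritional stress, and the Top2a difference of -4.04 between stress and log phase exceeds all others.

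The scrMo cultures differed from NT in several of these genes, and the comparisons that share the scrMo cultures have to be read together. Whether the mismatched morpholino itself made the difference was not tested. In log phase scrMo differed from NT in 5 of 10 genes (26.4% of all genes), with Top2a, Top2b and Abcg2 lower and Abcb1a and Abcb1b higher, and 1 of 10 was DE (2.45%), Top2a. DkkMo, set against NT in the same fit, passed for 0 of 10 genes (9.81% of all genes passed), and unadjusted p under 0.05 also gave 0 of 10. The log2 differences of DkkMo from NT were 0.09 for Top2a (95% interval -0.17 to 0.36), -0.02 for Abcb1a (-0.17 to 0.12) and 0.03 for Abcb1b (-0.12 to 0.17). Under nutritional stress scrMo differed from NT in 5 of 10 genes (46.8% of all genes) with 0 of 10 DE (4.43%). There limma gave 6 of 10 at unadjusted p under 0.05, against 53% of all genes, and voom called 2 of 10 DE, Top2a and Abcg2, and 2946 of all 16562 genes, both near the share of the members. DkkMo differed from NT under stress in 4 of 10 (41.7%): Top2a, Abcb1a and Abcg2 rose by 0.38, 0.37 and 0.31 and Abcc1 fell by 0.37 on the log2 scale.

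Top2a was the gene with the widest range. Log-phase NT cultures held 7204, 8928 and 8592 normalised counts, DkkMo 6920, 11411 and 8525, and scrMo 5361, 4069 and 5415. The 3 scrMo cultures lay below the 6 others, and the NT and DkkMo cultures overlapped. Under nutritional stress NT held 249.8, 281 and 264.6, DkkMo 389.6, 413.6 and 428.5, and scrMo 431.6, 503.1 and 501.5, so that no stressed culture came near a log-phase one and the NT cultures were the lowest of the 9. These values rested on 271 to 12539 reads per library.

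Between log phase and nutritional stress in NT cultures, Top2a fell by 4.04 on the log2 scale (SE 0.13, adjusted p = 1.13e-14), which is 16.4-fold on that scale and 31.1-fold as the ratio of mean normalised counts. In this comparison 7 of the 10 genes passed, against 65.6% of all genes, and 1 of 10 was DE, against 18.1%. In bulk cultures fewer cells of a kind and less RNA per cell cannot be told apart. The growth condition also went with a different day of harvest, and their parts cannot be told apart. DkkMo against scrMo gave 0.80 for Top2a in log phase (SE 0.13, adjusted p = 0.000156) and -0.14 under stress (SE 0.13, adjusted p = 0.471). In log phase DkkMo lay at 0.09 from NT (limma adjusted p = 0.732). Against NT, scrMo gave -0.71 in log phase (SE 0.13, adjusted p = 0.000399), a value of -0.58 without the scrMo culture numbered 2, which brought it just under the 1.5-fold limit. Under stress they were higher than NT by 0.52 (SE 0.13, adjusted p = 0.00241), or 1.81-fold as a ratio of means.

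**Figure D2:**
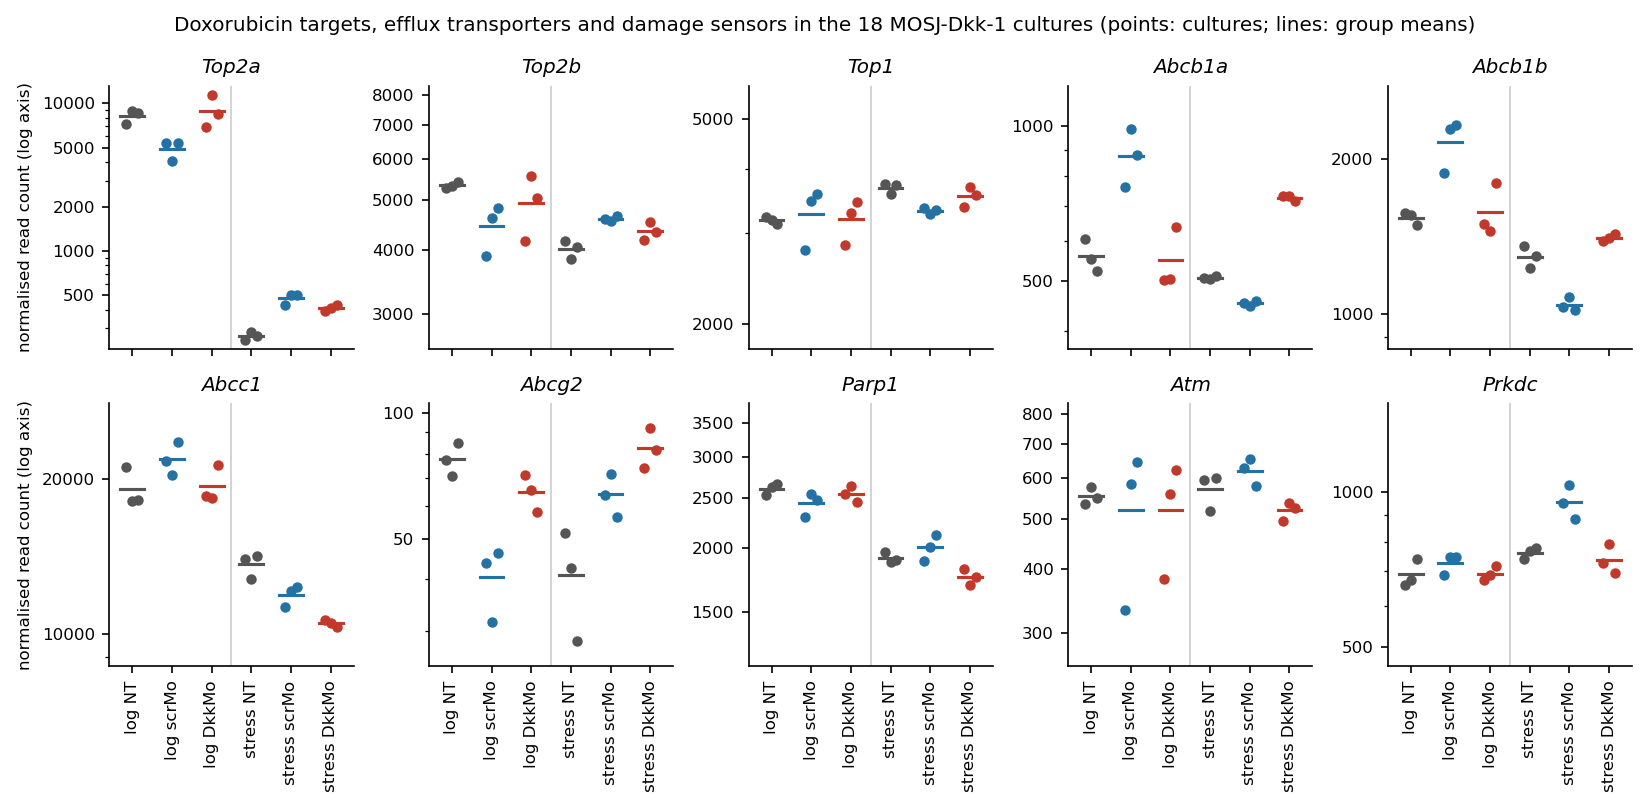
Normalised read counts of the 10 genes in the 18 cultures on log axes, 1 panel per gene, with points for cultures and lines for means of the 3 cultures of a group. Top2a lies at 4069 counts or more in log phase and at 503.1 or less under stress, and the scrMo cultures stand lowest for Top2a and highest for Abcb1a and Abcb1b in log phase.

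Top2b had a much narrower range. Its normalised counts were 5285 to 5432 in log-phase NT, 4168 to 5571 in DkkMo and 3896 to 4835 in scrMo, and 3841 to 4167, 4176 to 4541 and 4557 to 4650 in the same order under stress. It fell by 0.39 from log phase to stress in NT (SE 0.08, adjusted p = 0.000273). For scrMo against NT in log phase it gave -0.26 (adjusted p = 0.0232), a call kept in 3 of the 6 fits that left out a culture, the difference being -0.17 (adjusted p = 0.114) without the scrMo culture numbered 1. Levels of different genes can be set side by side roughly per kilobase of exon. The length used is that of all annotated exons of a gene, 9013 bases for Top2a and 14613 for Top2b, not of the transcripts expressed. On this measure log-phase NT cultures held 914 normalised counts of Top2a and 366 of Top2b, and stressed NT cultures 29.4 and 275. The order of the isoforms was thus reversed between the conditions, with no overlap of the cultures on either side. The exons of Top2b share 1793 bases (12.27% of its exon length) with Rarb on the opposite strand, and the strand setting of the counting is not given in the sources used here. Rarb stood at 41.8 to 303 normalised counts in the cultures.

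Top1 stayed within 2780 to 3734 normalised counts in all 18 cultures. It rose by 0.20 in stressed against log-phase NT cultures (SE 0.07, adjusted p = 0.0238), a call kept in 2 of 6 fits without a culture, and none of its 4 other contrasts between culture groups passed. Per kilobase of exon its group means were 305 to 353 normalised counts, below Top2b in log-phase NT and above it in stressed NT. These levels are close, so their order depends on the exon lengths used.

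**Figure D3:**
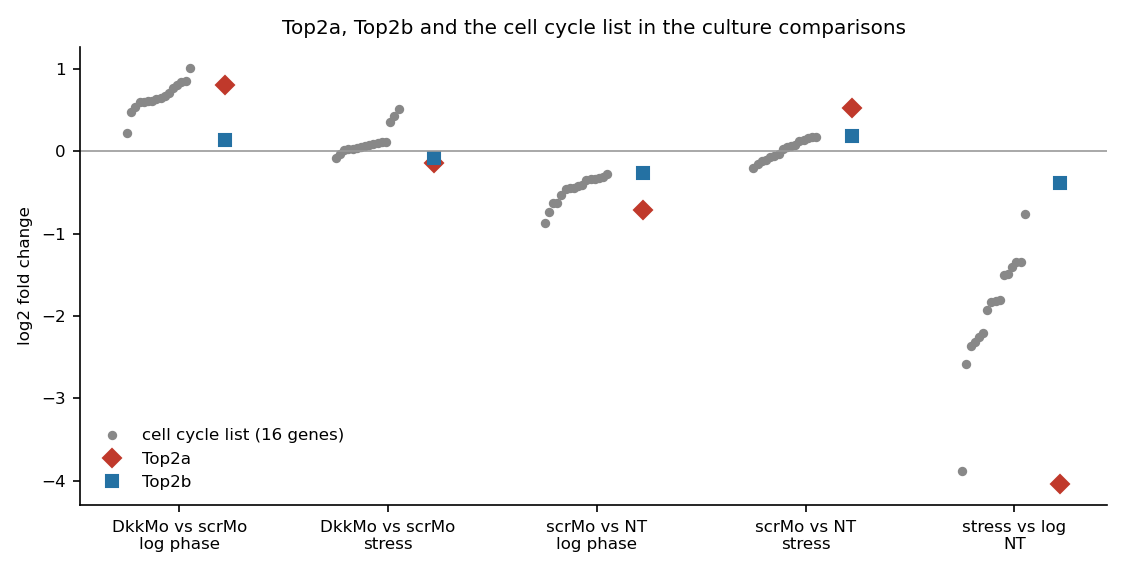
Log2 fold changes of Top2a (diamonds), Top2b (squares) and the 16 measured genes of the cell cycle list (grey points, sorted within each comparison) in the 5 culture comparisons. Top2a lies within the list's range in both log-phase comparisons, just below its lowest value of -3.88 in the fall under stress, below its lowest value of -0.08 for DkkMo against scrMo under stress at -0.14, and above its highest value of 0.17 for scrMo against NT under stress, where Top2a gave 0.52.

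Cell cycle genes moved beside Top2a in most comparisons. Of 18 genes in the list 16 were measured, among them Mki67, the antigen of cycling cells, and Rrm2, a subunit of ribonucleotide reductase. All 16 rose in DkkMo against scrMo in log phase (13 DE, median 0.64, against a median of 0 over all genes), where 23.5% of all genes passed and 1.97% were DE. The largest rises were Mki67 at 1.01, Cenpf, a kinetochore gene, at 0.85, and Rrm2 at 0.84. In scrMo against NT in log phase all 16 fell (4 DE, median -0.43), beside 26.4% of all genes passing and 2.45% DE. In stressed against log-phase NT all 16 fell and were DE (median -1.82), with Mki67 at -3.88, beside 65.6% passing and 18.1% DE. Under stress, 2 of 16 rose in DkkMo against scrMo (20.9% of all genes passed). Between scrMo and NT under stress 0 of 16 passed (46.8% of all genes), where Top2a itself rose. For scrMo against NT under stress the list's values ran from -0.21 to 0.17. Across the 18 cultures the genes whose deposited values followed Top2a most closely were Pole, the catalytic subunit of DNA polymerase ε, and Kif15, a mitotic kinesin (Pearson r = 0.998 each), and Ticrr, a replication initiation gene (r = 0.997), a description over cultures that share their growth condition.

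Among the transporters, Abcc1 was the most abundant and Abcg2 the least in every culture group. Per kilobase of exon the log-phase NT means were 1267 for Abcc1, 192 for Abcb1b, 102 for Abcb1a and 9.5 for Abcg2, in normalised counts, and no culture of one gene overlapped that of the next. Under nutritional stress the same order held in NT, at 904, 161.5, 92.8 and 5.01. Abcc1 also ranked first among all 10 genes in each culture group, with Top2a second in log phase and ninth under stress.

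For Abcb1a, log-phase NT cultures held 602.9, 552.5 and 524.6 normalised counts, DkkMo 503.4, 504.5 and 638.7, and scrMo 762.5, 987.8 and 880. Every scrMo culture lay above the other 6. In stressed cultures NT held 508.3, 506 and 511.1, DkkMo 732.5, 733.2 and 714.9, and scrMo 454.5, 448.1 and 458.7, so that DkkMo was highest and scrMo lowest without overlap. Against scrMo, DkkMo gave -0.50 for Abcb1a in log phase (SE 0.07, adjusted p = 4.39e-05) and 0.48 under stress (SE 0.07, adjusted p = 5.9e-05). As ratios of mean normalised counts these were 1.6-fold lower and 1.6-fold higher. The gene was higher in scrMo than in NT by 0.47 in log phase (adjusted p = 4.85e-05) and lay at -0.11 under stress (adjusted p = 0.199). In NT it differed little with the growth condition, at -0.09 (95% interval -0.24 to 0.05).

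Abcb1b had more counts in every culture and a like pattern. Log-phase values were 1566, 1552 and 1487 in NT, 1490, 1445 and 1791 in DkkMo and 1872, 2279 and 2327 in scrMo. Under stress they were 1351, 1225 and 1294, then 1381, 1401 and 1426, then 1032, 1076 and 1016. In log phase scrMo lay above the other groups, and under stress below them, without overlap. DkkMo against scrMo gave -0.40 in log phase (SE 0.07, adjusted p = 0.00041) and 0.35 under stress (SE 0.07, adjusted p = 0.00125). In scrMo it rose over NT by 0.42 in log phase and fell by 0.25 under stress (adjusted p = 0.000183 and 0.00634), and in NT it fell by 0.21 from log phase to stress (adjusted p = 0.0123), a difference that shrank to -0.05 when library medians were centred.

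Reads of the P-glycoprotein pair can in part be shared. Of the 150-base windows of their transcripts, the read length, 4.4% in Abcb1a and 5.1% in Abcb1b were identical in the other gene, and Top2a and Top2b shared none even at 50 bases. Across the cultures the values of the pair correlated at r = 0.83, with Smad1 (0.833) and Dnaja2 (0.830), a co-chaperone gene, closer still to Abcb1a, and P2ry2, a purine receptor, and Eif4e, the cap-binding factor, closest to Abcb1b (0.903 each). How reads that fit both genes were counted is not given in the sources used here.

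Abcc1 separated the growth conditions. Its cultures held 18108 to 21039 normalised counts in log-phase NT, 18344 to 21300 in DkkMo and 20377 to 23545 in scrMo, and under stress 12752 to 14181, 10310 to 10628 and 11249 to 12303. All 9 stressed cultures lay below all 9 log-phase ones. It fell by 0.48 from log phase to stress in NT (SE 0.07, adjusted p = 1.05e-05), and a centring of library medians, which moved the median difference of all genes in this comparison from -0.01 to 0.14 and the share of DE genes that were higher from 45.4% to 66.7%, left it at -0.32. DkkMo against scrMo gave -0.17 in log phase and -0.18 under stress (SE 0.07 each, adjusted p = 0.0981 and 0.0949). Under stress scrMo against NT gave -0.19 (adjusted p = 0.036), a call kept in 2 of the 6 fits without a culture and at 0.02 after quantile normalisation.

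Abcg2 was near the limit of what this depth resolves, with 28 to 99 reads in a culture. Log-phase NT cultures held 77.2, 70.5 and 84.8 normalised counts, DkkMo 71.0, 65.6 and 58.0, and scrMo 43.8, 31.5 and 46.1. Stressed NT cultures held 51.5, 42.5 and 28.5, DkkMo 74.1, 91.9 and 81.5, and scrMo 63.7, 71.5 and 56.4. In log phase scrMo was lowest without overlap, and under stress NT was. Log2 differences were small because of the scale: scrMo against NT gave -0.28 in log phase (adjusted p = 0.00117), where the means differed 1.91-fold. Under stress it was higher by 0.19 (adjusted p = 0.0109, means 1.56-fold apart), and stress against log phase in NT gave -0.28 (adjusted p = 0.00024, 1.9-fold). DkkMo against scrMo gave 0.19 in log phase (adjusted p = 0.0173, 1.6-fold) and 0.12 under stress (adjusted p = 0.137). On the log2 scale of normalised counts plus 1, the log-phase differences of scrMo from NT and of DkkMo from scrMo, the stress difference of scrMo from NT and the fall of NT under stress all became DE for Abcg2.

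The damage sensors changed by little in culture. Parp1 held 2300 to 2662 normalised counts in the 9 log-phase cultures and 1692 to 2122 in the 9 stressed ones, which do not overlap, and fell by 0.40 in NT (SE 0.05, adjusted p = 8.08e-07). Under stress DkkMo against scrMo gave -0.17 (adjusted p = 0.0225), kept in 2 of 6 fits without a culture and at -0.13 (adjusted p = 0.128) without the scrMo culture numbered 3. Prkdc stood at 951, 1032 and 886.4 in stressed scrMo, above all other 15 cultures at 659.7 to 791.4. It rose by 0.25 over NT (adjusted p = 0.000828) and gave -0.29 in DkkMo against scrMo (adjusted p = 0.000768), with DkkMo at -0.04 from NT (95% interval -0.15 to 0.08). Atm ranged from 333.3 to 652.5 and passed in none of the 6 culture tests by limma, with a difference of -0.18 (95% interval -0.43 to 0.08) for DkkMo against scrMo under stress. Its lowest cultures, 333.3 in scrMo and 382.6 in DkkMo, were both numbered 1 in log phase.

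The growth condition in NT changed more genes than any comparison of a morpholino did, at 65.6% of all genes, with 18.1% DE. DkkMo against scrMo gave 23.5% in log phase and 20.9% under stress, with 1.97% and 1% DE. Against NT, scrMo gave 26.4% in log phase and 46.8% under stress, and DkkMo gave 9.81% and 41.7%. The other genes of these pathways, listed by function, are read against the share of the same comparison. Of 25 damage response genes 23 were measured, and between log phase and stress in NT 14 fell and 5 rose (8 DE down, 1 DE up, median -0.38). Fancd2, a Fanconi anaemia gene, fell by 1.63 and Brca1 by 1.48, while Trp53bp1 rose by 0.70. DkkMo against scrMo changed 9 of 23 in log phase and 8 of 23 under stress with none DE. Of the 12 genes that accompany topoisomerases or repair their lesions, all measured, 5 fell and 2 rose under stress, a share below that of all genes. Of these 3 were DE, Topbp1 at -1.06 and the MRN complex genes Mre11a and Rad50 at -0.72 and -0.67. DkkMo against scrMo moved 2 of 12 in each condition, none DE. Of 13 other drug exporters 8 were measured, and 4 rose and 2 fell under stress, a share near that of all genes. Among them only Abcc10 (MRP7), at -0.67, was DE.

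Of 12 enzymes that reduce or carry anthracyclines 11 were measured, with a median of -0.42 under stress in NT, and 8 fell and 1 rose under stress in NT, with Xdh, the xanthine dehydrogenase gene, at -2.05, Nqo1, a quinone reductase, at -1.95 and Cyb5r3 at -1.73, whereas Por, the P450 reductase that can cycle doxorubicin to its radical, rose by 0.64. In stressed scrMo against NT, Nqo1 and Xdh rose by 1.18 and 0.87 and Por gave -0.81. DkkMo against scrMo gave 0.64 for Xdh in log phase and -0.76 for Nqo1 under stress (adjusted p = 2.69e-06 and 1.98e-05). In Nqo1 the stressed DkkMo mean of 1573 normalised counts lay between NT at 1102 and scrMo at 2848.

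In the tumours, Top2b and Top1 were lower in the combination than in DRB alone, and no transporter or damage kinase passed the test. Comparing the combination with DRB alone, which asks what DkkMo adds to doxorubicin, 2 of the 8 measured genes passed and were DE, against 7.35% of the 12595 genes tested by either rule: Top2b and Top1, both lower. The median gene differed by a log2 of -0.71 in this comparison (0.33 with library medians centred), and of the 926 DE genes 872 were lower, a share of higher calls of 5.83% that became 36.7% when library medians were centred. The count of 926 rested on single tumours, being 242 without DRB tumour 14A, 251 without combination tumour 36A and 254 without combination tumour 40A, and it was 471 with medians centred and 0 by voom. Against NT, DRB gave 0 of 8 (0% of all genes) by adjusted p and 0 of 8 DE (0%), with 0 of 8 and 1500 of 12595 at unadjusted p under 0.05. DkkMo against NT also gave 0 of 8 (0%) by both rules, with 3 of 8, Top2b, Abcb1b and Prkdc, and 1554 of all genes (12.3%) at unadjusted p under 0.05. The combination against DkkMo gave 0 of 8 (0%) with 0 of 8 and 150 of all genes, and the interaction of DkkMo with DRB 0 of 8 (0%) with 0 of 8 and 853 of all genes, at unadjusted p under 0.05. voom also called none of the 8 genes in any of these 5 comparisons.

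Top2b held 1922, 74.6, 25390 and 45637 normalised counts in the NT tumours and 57276, 47177, 5459 and 1808 in the DRB tumours. DkkMo tumours held 584.9, 452.1, 0 and 0, and combination tumours 668.5, 360.1, 3.93 and 132.8. Every tumour that received DkkMo lay below every DRB tumour, and NT spanned almost the whole range, its tumour 5A falling among the DkkMo values. For the combination against DRB the log2 difference was -5.38 ± 1.44 (SE), 41.6-fold on that scale, or -4.67 relative to the median gene (adjusted p = 0.0303, exact permutation p = 0.0286, two-sided, the smallest that 4 against 4 allows). DkkMo against NT gave -4.40 ± 1.44 (adjusted p = 0.288, exact permutation p = 0.114). Once tumour 5A was left out this difference became DE, as did Prkdc, and the count over all genes rose from 0 to 222. The combination and DkkMo tumours differed by 0.51 (95% interval -2.49 to 3.51). The call against DRB was kept in 3 of the 8 fits that left out a tumour, with log2 differences of -6.29 to -4.67, and its adjusted p was 0.107 without DRB tumour 14A and 0.316 by voom. Rarb, which overlaps Top2b, differed by -0.08 ± 0.53 between the combination and DRB.

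Top1 held 1036, 106.1, 47.6 and 25216 normalised counts in NT, 10931, 6587, 11870 and 1214 in DRB, 1668, 414.7, 1404 and 9.95 in DkkMo, and 85.1, 0, 170.5 and 905.4 in the combination. The DRB tumours lay above all 4 combination tumours, and DRB tumour 20A lay below 2 of the DkkMo tumours. The combination against DRB gave -4.48 ± 1.34 (SE) on the log2 scale (adjusted p = 0.047, exact permutation p = 0.0286), or -3.77 relative to the median gene. This call was kept in 1 of the 8 fits without a tumour and was lost after centring of medians (adjusted p = 0.0684) and by voom (adjusted p = 0.16). For DkkMo against NT the difference was -0.69 ± 1.34 (adjusted p = 0.826).

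**Figure D4:**
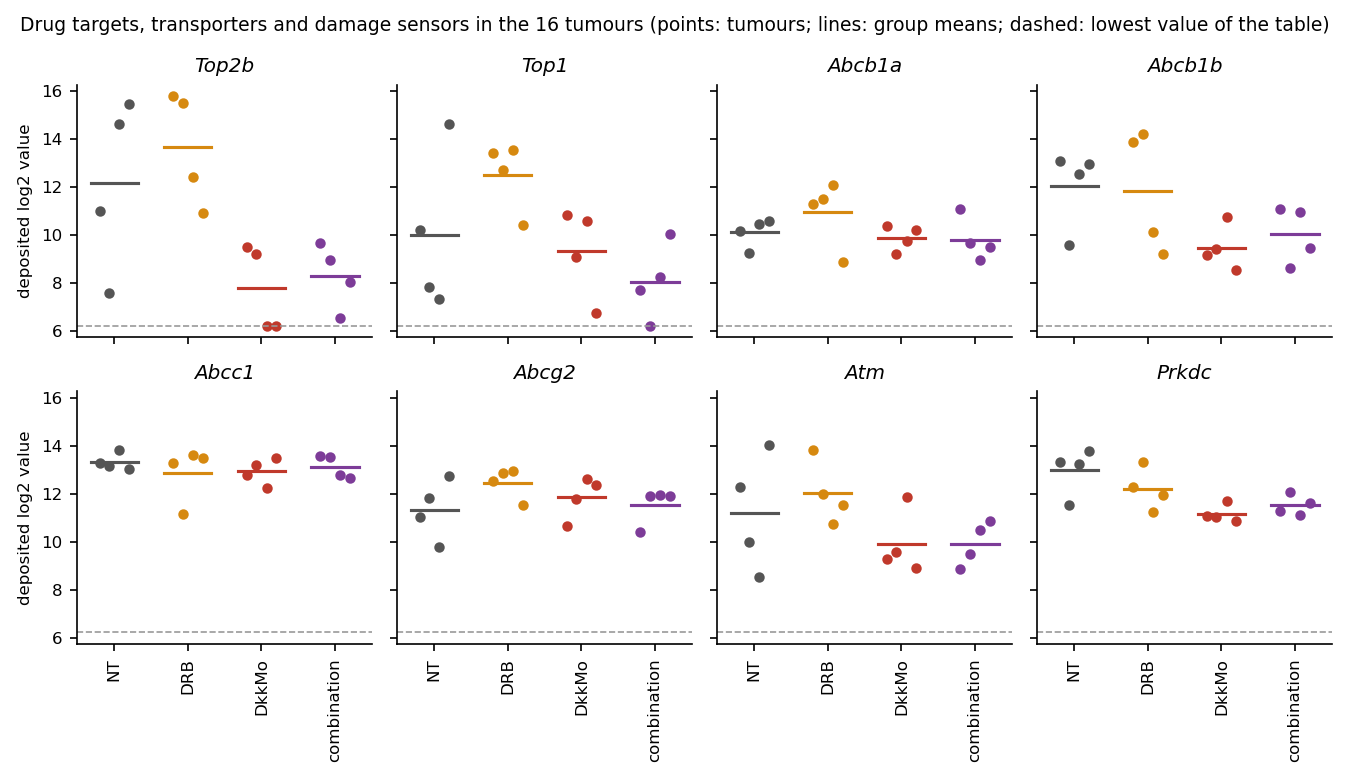
Deposited log2 values of the 8 measured genes in the 16 tumours, 1 panel per gene, with points for tumours, lines for means of the 4 tumours of a group and a dashed line at the table's lowest value of 6.23, where no read was counted. Top2b in the combination lies below all DRB tumours, as does Top1, whereas the 4 groups overlap for Abcc1 and Abcg2.

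Library and tissue measures moved with the same groups. The tumours given DkkMo, alone or with DRB, had 26.9 to 52.1 M reads against 53.8 to 125.1 M in the others. The 10 most abundant genes took 46.7 to 73.5% of the reads in DRB and 13.5 to 18.6% in the combination, and genes without reads numbered 165 to 316 and 537 to 1474. Of the macrophage list 5 of 10 genes were measured, none of them at 0 in any tumour, and their sum was 15704 to 203849 normalised counts in DRB and 9548 to 11962 in the combination. Of these 1 fell, the leukocyte gene Ptprc, which fell by 3.98 between these groups (adjusted p = 0.0399), while 0 of the 8 measured endothelial genes passed, with sums of 26694 to 114246 and 28034 to 35787 and Tie1 at 0 in at least 1 DRB tumour. The 10 measured osteosarcoma lineage genes summed to 115030 to 1625628 and 19786 to 104693, and Acan, the cartilage proteoglycan, was the one that fell, at -2.65 (adjusted p = 0.0355). The 2 measured osteoclast genes went the other way without overlap, summing to 596.1 to 1508 in DRB and 2119 to 3858 in the combination, though neither passed the test. The 1 measured adipocyte gene, Plin1, stood at 555.2 to 2035 and 10.1 to 784.1 and did not pass. Sums of the neutrophil, erythroid and skeletal muscle genes, 2 measured of each, overlapped between these groups. The part of depth, of read concentration, of lineage markers and of host leukocytes in the Top2b and Top1 differences was not tested. Genes that followed Top2b most closely over the 16 tumours were Mbnl1 and Lrrk1 (r = 0.935 each) and Mcph1 (0.934), and Top1 was followed by Cltc, the clathrin heavy chain gene (0.948).

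The transporters overlapped between all tumour groups. Abcc1 was the steadiest, at 9101, 8402, 10064 and 14363 normalised counts in NT, 9839, 2163, 12550 and 11360 in DRB, 4803 to 11629 in DkkMo and 6338 to 12180 in the combination. Its 4 log2 differences between groups lay between -0.45 and 0.25, each with a 95% interval within -1.53 to 1.33. Abcb1a held 468.3 to 1391 in NT, 339.7, 2367, 2798 and 4187 in DRB, 461.2 to 1203 in DkkMo and 363 to 2011 in the combination. DRB against NT gave 0.83 for Abcb1a (95% interval -0.74 to 2.41) and -0.19 for Abcb1b (-2.38 to 2.00), so that a several-fold change in either direction was not resolved. Abcb1b was widely spread, with 3 NT tumours at 5848 to 8511 and the fourth at 634.2, DRB tumours at 14865, 18799, 976 and 453.2, and all 8 tumours given DkkMo at 235.2 to 2052. DkkMo against NT gave -2.57 ± 1.05 (adjusted p = 0.349, exact permutation p = 0.0571).

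Abcg2, the rarest transporter in culture, stood in the tumours at 737.3 to 6805 normalised counts in NT, 2840 to 7805 in DRB, 1497 to 6261 in DkkMo and 1244 to 3885 in the combination. Tables were normalised separately, so no test links them, but within the tumour table Abcg2 exceeded Abcb1a per kilobase of exon in all 4 group means, at 398 against 188 in NT, whereas in log-phase NT cultures it was the lowest of the 10. In single tumours the order was not uniform, and it was reversed in NT tumour 6A, DkkMo tumour 24A and combination tumour 34A. DRB against NT gave 1.13 ± 0.65 (adjusted p = 0.502) and the combination against DRB -0.93 ± 0.65 (adjusted p = 0.373).

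**Figure D5:**
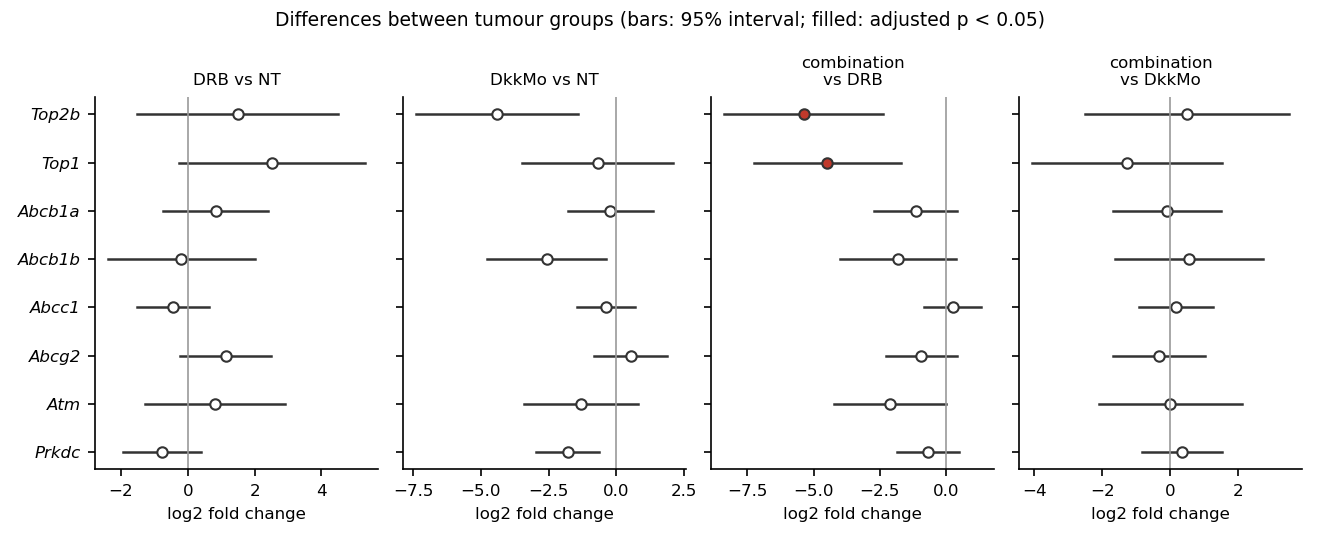
Log2 fold changes of the 8 measured genes in the 4 comparisons between tumour groups, with bars for the 95% interval and filled points for an adjusted p under 0.05. Only Top2b and Top1 in the combination against DRB are filled, and the intervals span several log2 units for most genes other than Abcc1.

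The damage kinases were scattered in NT and DRB tumours. Atm held 4812, 894.4, 234.8 and 17017 normalised counts in NT and 14505, 3993, 1599 and 2852 in DRB, against 345.5 to 3589 in DkkMo and 328.1 to 1707 in the combination. The combination against DRB gave -2.12 ± 1.01 (adjusted p = 0.188, exact permutation p = 0.0571), its groups overlapping through DRB tumour 19A. Prkdc held 10117, 2827, 9753 and 14213 in NT, 2276 to 10243 in DRB, 1768 to 3205 in DkkMo and 2117 to 4257 in the combination. Its difference between DkkMo and NT was -1.80 ± 0.56 (adjusted p = 0.279, exact permutation p = 0.0571), with tumour 5A of NT the one within the DkkMo range. In the combination against DRB, where 7.35% of all genes passed, 2 of the 6 measured topoisomerase partners fell, Rbbp8 (CtIP) at -3.89 and Mre11a at -3.29, which act in the resection of double-strand breaks, and of 13 damage response genes 1 fell, Brca2, at -2.89, a share near that of all genes. Of 9 other exporters, 5 anthracycline enzymes and 5 cell cycle genes measured, none passed in any tumour comparison, and the medians of these lists for the combination against DRB were -0.48, -0.49 and -1.04, beside -0.71 over all genes.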

How the data were processed

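Total RNA of 18 cultures and 16 tumours was sequenced as 150-base paired reads after oligo(dT) selection, with an extraction for fixed tissue in the tumours. The submitters' processing notes name HISAT2 2.1.0, SAMtools 1.9, StringTie, featureCounts of Subread 2.0.0 and DESeq2 with GRCm38, and per the methods HISAT2 alignment came before counting and DESeq2. The strand setting is not given in the sources used here. The authors deposited variance-stabilised log2 values, 1 table for cultures and 1 for tumours, and each was used within itself only.

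Inverting the transformation gave normalised counts, and dividing by the value of 1 read gave whole reads (within 0.05) for 100% of values under 100 reads in every library. Among the culture rows, 14 that spread over more than 6 log2 units within a group were set aside, leaving 16562 genes. This rule was not applied to the tumours. There Top2b and Top1 would have met it, with log2 values of 7.61 to 15.48 and 7.35 to 14.63 in the NT tumours. Groups followed the labels. limma 3.58.1 (R 4.3.3) fitted group means with a trended prior to all 18 cultures or all 16 tumours, and p-values were adjusted by Benjamini-Hochberg over all genes tested. A filter on the lowest value (3 cultures or 4 tumours above it) removed no gene. Single tumour values were also tested by exact permutation. The models were checked on simulated data. No pair of libraries was alike within sampling noise. Promoters and motifs came from RefSeq on GRCm38.p6, and exon lengths from the gene annotation of that build.

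The 10 genes and the accompanying lists were chosen with earlier results of these data known. Named were all 10 genes; of each list, genes that were DE, at most 3 rises and 3 falls per comparison; and the 3 genes closest to each by Pearson correlation, with predicted genes left out. List genes without DE that the text names to say what a list holds were chosen after their values were seen. Alternatives covered the low-value filter, model samples, prior trend, median centring, quantile normalisation, log2 of normalised counts plus 1, voom on recovered reads, array weights, the fold threshold, leaving out each library, a replicate block and NT as control. 1 gene of the damage response list is not reported here by name.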

Additional observations from a re-analysis of the deposited data

Results flagged for a closer look

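A sample far from the other 3 of its group was found in 3 of the 32 gene and group pairs of tumours tested by Dixon's ratio, a test that flags about 1 in 20 by chance. Abcb1b in NT tumour 5A, at a log2 value of 9.60 (634.2 normalised counts against 5848 to 8511), gave a ratio of 0.848. Abcc1 in DRB tumour 18A, at 11.17 (2163 against 9839 to 12550), gave 0.862, and Abcg2 in combination tumour 34A, at 10.44 (1244 against 3687 to 3885), gave 0.955.

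The effect of DkkMo against scrMo differed between log phase and nutritional stress by the interaction test for 5 genes, with log2 differences of 0.97 for Abcb1a, 0.75 for Abcb1b, -0.95 for Top2a, -0.22 for Parp1 and -0.24 for Prkdc. For Abcb1a and Abcb1b the effect changed sign between the conditions. With NT in place of scrMo the interaction was 0.39 for Abcb1a (adjusted p = 0.00557), 0.07 for Abcb1b (adjusted p = 0.611) and 0.29 for Top2a (adjusted p = 0.251).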

How the results depend on the processing

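Of the 10 genes, the number DE changed as follows. For the combination against DRB tumours (2 in the fit reported) it was 1 without the prior trend and 1 with library medians centred (Top2b each time), 0 on log2 of normalised counts plus 1 and 0 by voom, and 0 to 2 when 1 tumour was left out. Under the first 4 of these settings, 854, 471, 861 and 0 of all genes were DE (from 926). For DkkMo against NT tumours (0) leaving out 1 tumour gave 0 to 2, the 2 arising without NT 5A, where 222 of all genes were DE (from 0). For DkkMo against scrMo it was 3 in log phase (from 1) and 1 under stress (from 0) both on log2 of normalised counts plus 1 and by voom, 4 and 4 without a fold threshold, and 0 in log phase against NT. All genes DE also rose, from 326 to 1158 and 1136 in log phase and from 166 to 891 and 918 under stress, on these scales in turn. For scrMo against NT both of these scales gave 3 in log phase (from 1) and 2 under stress (from 0), and no fold threshold gave 5 and 5; leaving out 1 culture gave 0 to 1 in log phase. All genes DE went from 405 to 1320 and 1346 in log phase and from 734 to 2923 and 2946 under stress. For stress against log phase it was 2 after quantile normalisation (Top2a and Abcc1), 2 on log2 of normalised counts plus 1, 2 by voom and 7 without a fold threshold (from 1), with 2855, 6251 and 6317 of all genes on the first 3 (from 3000). The interaction in culture gave 5 without a fold threshold and 0 against NT (from 3). With NT as control, 137 of all genes were DE in log phase (from 326) and 649 in the interaction (from 613). Without a fold threshold all genes numbered 3890 and 3464 for DkkMo against scrMo in log phase and under stress. For scrMo against NT they numbered 4365 and 7743, for stress against log phase 10864, and for the interaction 3673. Apart from the fold threshold, the causes of these shifts were not tested.

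Signs reversed for 4 values: with NT as control, Abcb1b (0.03) and Abcg2 (-0.08) in log phase and the Top2a interaction (0.29), and after quantile normalisation Abcc1 in stressed scrMo against NT (0.02). In log phase, deviations of same-numbered DkkMo and scrMo cultures correlated at 0.624 for number 1, 0.57 for number 3 and -0.049 for number 2. Between cultures of different numbers these correlations ran from -0.682 to 0.299. Numbers 1 and 3 thus went with a shared pattern in log phase, which the fit reported does not model. Under stress the same-numbered correlations were -0.059 to 0.005. With the replicate block the numbers of genes DE stayed at 1, 0, 1 and 3, and Parp1 was no longer called in the interaction (-0.22, adjusted p = 0.0547). Keeping the 14 rows set aside, chosen after seeing the data, changed no such number. With 4 scattered tumours a group, differences of several-fold in Abcb1a and Abcb1b could not be resolved.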

Other observations

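In the log-phase morpholino cultures numbered 1, Atm, Top2b and Top1 were all at the lowest value of their group: Atm at 333.3 normalised counts in scrMo (others 585 and 644.5) and 382.6 in DkkMo (559.1 and 621.4), Top2b at 3896 (4607 and 4835) and 4168 (5571 and 5039), and Top1 at 2780 (3467 and 3581) and 2849 (3282 and 3447). The NT cultures of log phase showed no such spread, at 535.4 to 578.2 for Atm. The scrMo culture held 33.0 M reads (others no more than that) and the DkkMo culture 29.8 M (others 32.7 and 31.7), each with 11 genes without reads (others 9 and 9, and 4 and 7), and the part of depth was not tested.

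Among the tumours, Abcb1b followed Prkdc (r = 0.768) and Top2b (r = 0.755) and was less close to its neighbour Abcb1a (r = 0.524), whereas Top1 followed Atm (r = 0.809). In the cultures Abcb1a and Abcb1b were the closer pair (r = 0.83), and Parp1 followed Top2a (r = 0.941) and Abcc1 (r = 0.890). These are descriptions over 16 tumours and 18 cultures that differ in treatment and depth.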
